A study of Mus musculus with 12 samples.

Results

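The genes described here are the orphan and adhesion G protein–coupled receptors (GPCRs) of the mouse hypothalamus. *Gpr75*, the gene that was disrupted in the study, is among them. Members were the protein-coding genes listed on both diets whose symbol is Gpr followed by a number or starts with Adgr, with 2 such symbols left out by the rule. They were 67 of 16438 genes listed on both diets, 49 with Gpr symbols and 18 with Adgr symbols. Hypothalamus RNA was sequenced from 8-week-old male mice on the *C57BL/6J* background in 4 groups of 3. In 1 pair of groups, WT and *Gpr75*-/- animals ate chow, and in the other pair both genotypes received a high-fat diet (HFD) from 6 weeks of age for 2 weeks. *Gpr75*-/- mice are homozygous for 1 null allele made with CRISPR/Cas9, in which a frameshift near the start of the coding sequence ends translation early in every tissue. Each value below is 1 number per gene and diet or per gene and group, since the values of single mice were not analysed here.

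Orphan GPCRs are receptors with the membrane fold of the hormone and neurotransmitter receptors for which no endogenous ligand is agreed on. Several signal without a ligand, and in the brain many are made by neurons or glia of particular regions. Adhesion GPCRs carry a long extracellular part that is cut close to the membrane, bind proteins on neighboring cells or in the matrix, and are activated by a tethered stretch that the cut exposes. GPR75 is an orphan receptor of neurons that has been tied to Gq signaling, and the study concerns its role in the primary cilium, the antenna-like organelle through which neurons of the hypothalamus receive signals on energy balance.

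*Gpr75* (ENSMUSG00000043999) lies on chromosome 11 at 30835358 to 30843729 in the deposited coordinates, which use GRCm39 according to the submitters' processing notes. In the GENCODE vM21 annotation its transcript has 2 exons and 2926 bases, and the 1620 coding bases lie in 1 exon. The first 90 coding bases are shown because the null allele was made close to this start. They are printed from the reference transcript, not from the mice, on the strand of the gene, with the start codon in capitals.

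Gpr75 coding start: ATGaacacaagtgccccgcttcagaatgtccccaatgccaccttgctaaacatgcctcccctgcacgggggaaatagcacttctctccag

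The stretch belongs to the only exon that holds coding sequence, so a frameshift in it leaves the rest of the mRNA countable. The *Gpr75* mRNA level therefore does not check the genotype labels.

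Depth is known here as an average mouse after scaling. Mean normalized counts, the authors' counts divided by size factors and averaged over 6 mice, summed to 18280462 on chow and 19420111 on the HFD. Counts per group, and sums of them, were computed from this mean and the fitted fold, and were not measured separately. All 10 genes of a list of hypothalamic identity genes, such as *Pomc* and *Agrp*, were listed on both diets. On the HFD all 10 had a higher value in *Gpr75*-/- mice, with summed mean counts 1.22 times those of WT mice, against 1.01 on chow. Of the 10, 4 had an unadjusted p under 0.05 on the HFD in the Wald test described below. With Benjamini-Hochberg adjustment 1 passed, *Pmch*, at 1.29-fold (1.17 to 1.42, adjusted p of 0.000749 in that test). On chow 6 were higher and 4 lower, and none passed. Genes of other tissues differed between the groups in places. On chow, summed counts of 9 choroid plexus genes in *Gpr75*-/- mice were 8.70 times those of WT mice, and 2.53 times without *Ttr*. The authors' filters left 3 of the 9 with a test, and *Ttr*, abundant in choroid plexus, had none on that diet. Its mean count was 2910 on chow and 48.5 on the HFD, and its mean log2 CPM (log2 of reads scaled to a common library size) on chow was 2.48 in WT and 3.69 in *Gpr75*-/- mice, against a fitted fold of 32.9 (1.64 to 659). On the HFD, *Ttr* fell to 0.356 of WT (0.227 to 0.557, adjusted p of 0.00692 in the Wald test with Benjamini-Hochberg adjustment over all genes), and the summed counts of the 5 choroid plexus genes listed on that diet were 0.964 times those of WT mice. Summed red blood cell counts were 1.59 times those of WT mice on chow, where all 5 genes were higher and *Hbb-bs* and *Hbb-bt* passed the adjusted threshold, and 0.894 times on the HFD, where all 5 were lower and none passed. Their part in the results below was not tested.

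The members covered a wide range of levels. Levels between genes are compared as mean normalized count per kb of exon, averaged over the diets, with exon lengths from GENCODE vM21 for 66 of the 67 members (all but *Gpr52*). The median was 110 per kb, close to the 115 of all protein-coding genes. The highest level was that of *Gpr37l1* with 1854 per kb, a receptor of astrocytes. It was followed by the adhesion receptor gene *Adgrg1* (600.2 per kb), which functions in cortical development and in oligodendrocyte precursors. *Gpr162* (508 per kb), *Gpr165* (449 per kb) and *Gpr27* (405 per kb) came next. *Gpr27* belongs with *Gpr85* to the small SREB family, whose sequences are conserved to an unusual degree between vertebrates. *Adgrb1*, at 392.5 per kb, and *Adgrl1*, at 384 per kb, encode synaptic adhesion receptors of the BAI and latrophilin families, and *Adgra1*, at 306 per kb, encodes an adhesion receptor with no agreed ligand. *Gpr37*, the oligodendrocyte relative of *Gpr37l1*, was at 299 per kb and *Gpr153* at 295 per kb. In all, 4 of the 10 highest were adhesion receptor genes.

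*Gpr75* was near the middle of the members, at 131 per kb and rank 26 of 66. *Adgrd1*, which encodes an adhesion receptor that raises cAMP, was at 4.35 per kb and rank 65, just above the very long *Adgrv1* at 3.36 per kb. Mean normalized counts, which set the precision of a single gene, ran from 23.6 to 4207 over the members, with a median of 456. They were under 100 for 14 members and at least 1000 for 19.

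**Figure D1:**
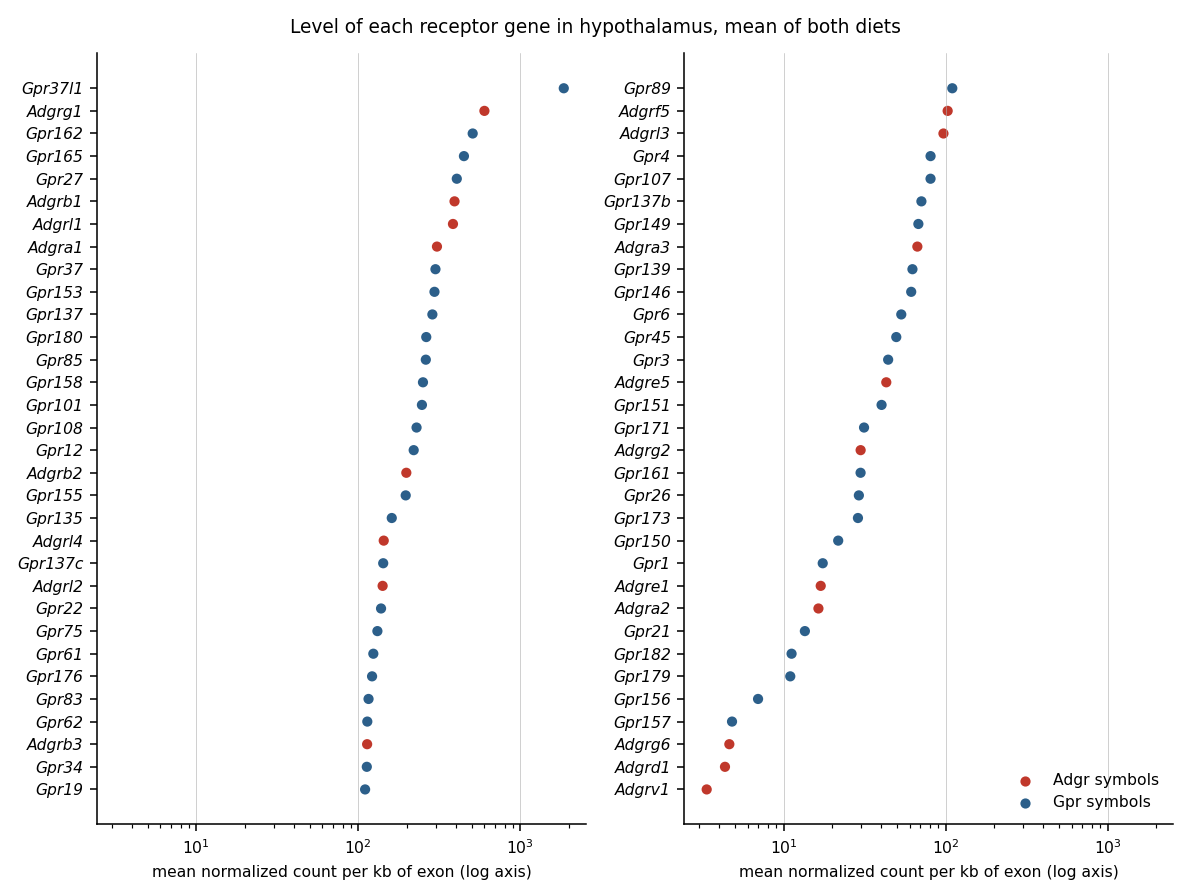
Mean normalized count per kb of exon (log axis, average of both diets) for 64 of the members with an exon length, in order of level, with adhesion receptor genes in red and the others in blue. *Gpr37l1* stands at 1854 per kb, *Gpr75* lies near the middle at 131 per kb, and *Adgrd1* is next to last at 4.35 per kb.

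On the chow diet, *Gpr75* itself was the member that rose. The question in both comparisons is how loss of the receptor alters hypothalamic gene expression on each diet. The mean log2 CPM of *Gpr75*, the scale read from the deposited group values, was 4.06 in WT and 4.62 in *Gpr75*-/- mice. The mean count and the fitted fold gave group counts of 311 and 456. The group with the null allele had more mRNA of the gene, not less. The fold of *Gpr75*-/- over WT was 1.47 (95% interval 1.25 to 1.73), with a log2 fold change of 0.55 ± 0.12 (SE, 3 mice per group) and an adjusted p of 0.0076 in the Wald test with Benjamini-Hochberg adjustment over all genes tested. Of the 16191 genes tested on chow, 10 passed this threshold (0.0618%), 7 of them higher (0.0432%) and 3 lower (0.0185%). Of the 66 members tested, *Gpr75* alone passed. The other 65 had log2 fold changes between -0.95 and 0.80, with adjusted p-values of at least 0.5996 in the same Wald test.

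On the HFD, the *Gpr75* means of the genotypes lay close together. The gene had a mean log2 CPM of 4.31 in WT and 4.21 in *Gpr75*-/- mice, and group counts computed from the fold of 393 and 376. The fold was 0.956, and its interval of 0.598 to 1.53 includes the chow value. The log2 fold change of -0.06 ± 0.35 (SE, 3 mice per group) had an adjusted p of 0.9999 in the Wald test with Benjamini-Hochberg adjustment. The difference between the diets was -0.62 ± 0.37 on the log2 scale, with an unadjusted p of 0.0913 and an adjusted p of 0.9996 in the Wald test of the difference. The genotype effect on *Gpr75* was therefore not shown to differ between the diets.

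The standard error of *Gpr75* on the HFD was far above what its count level gives. It was 5.74 times the error from counting alone, against 1.95 times on chow. Among 2942 genes with a mean within 1.5 times of that of *Gpr75* on the HFD, the median was 1.86 times, and 21 genes (0.714%) had a standard error at least as large. The group values place this spread in the *Gpr75*-/- mice. The log2 of a group's mean count exceeds the mean of the log2 counts where mice differ, and this gap was 0.0627 in *Gpr75*-/- mice on the HFD, where the rounding of the deposited value allows 0.0181. A gap as large was found in 0.476% of genes of similar mean in that group. In WT mice on the HFD the gap was 0.00846, which 27.3% of such genes reached, and on chow it was 0.00976 in WT and 0.0139 in *Gpr75*-/- mice. By this estimate the 3 *Gpr75*-/- mice on the HFD varied in *Gpr75* mRNA more than they did in nearly all comparable genes.

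The neighbors of *Gpr75* lay nearer to WT on chow. *Asb3*, whose interval overlaps that of *Gpr75*, was at 1.03-fold (0.903 to 1.18) on chow and 1.11-fold (0.986 to 1.25) on the HFD. *Psme4*, which ends 4997 bases before *Gpr75*, was at 0.942-fold (0.808 to 1.10) on chow and 0.879-fold (0.773 to 1.001) on the HFD. Reads in the overlap of *Gpr75* and *Asb3* could be assigned to either gene, and whether counting used the strand is not given in the sources used here.

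*Adgrd1*, on chromosome 5, was the member that fell on the HFD. Its mean log2 CPM was 1.51 in WT and 0.23 in *Gpr75*-/- mice. The group counts computed from the fitted fold were 56.6 and 19.4. On chow the log2 CPM means were 1.0 and 0.62, and the group counts computed in the same way were 38.6 and 30.2. The lower mean of the *Gpr75*-/- mice was thus seen on both diets, with the wider gap on the HFD. The HFD fold was 0.343 (0.205 to 0.572), with a log2 fold change of -1.55 ± 0.38 (SE, 3 mice per group) and an adjusted p of 0.0321 in the Wald test with Benjamini-Hochberg adjustment. On the HFD 32 of 16089 genes tested passed the threshold (0.199%), 6 of them higher (0.0373%) and 26 lower (0.162%), and *Adgrd1* was the one member among 66. On chow the fold was 0.784 (0.459 to 1.34, adjusted p of 0.9996 in the Wald test). The difference between the diets was -1.19 ± 0.54 on the log2 scale, with an unadjusted p of 0.0285 that gave an adjusted p of 0.9996 in the same test.

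The call on *Adgrd1* rests on few reads. Its standard error on the HFD was 1.72 times the counting error, the same as the median of 1.72 times for genes of similar mean. The gap between the log2 of the mean and the mean of the logs was 0.015 in WT mice on the HFD, which 43.1% of genes of similar mean reached. In *Gpr75*-/- mice on the HFD it could not be read, since it was -0.238, a negative value that spread between mice cannot give. On chow it was 0.0625 in WT and 0.0928 in *Gpr75*-/- mice, which 6.38% and 1.95% of genes of similar mean reached. A group count of 56.6 in WT against 19.4 in *Gpr75*-/- mice is a low level at which to measure a fold. Requiring a mean of at least 100 removed the gene. At this level the deposited log2 CPM means lie near their floor of 0. The processed pseudogene *Rps16-ps2*, inside the interval of *Adgrd1*, was at 0.970-fold (0.787 to 1.20) on the HFD. *Ptk7*, a cell surface protein that binds this receptor, was at 1.10-fold (0.881 to 1.37).

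**Figure D2:**
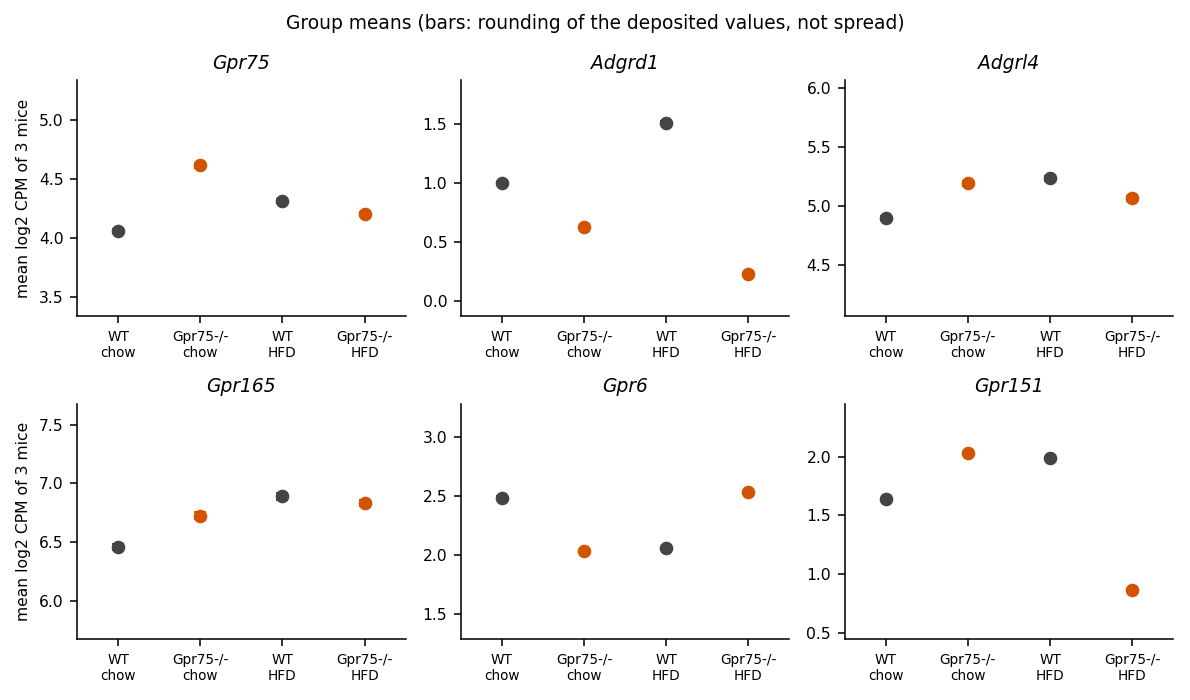
Mean log2 CPM of 3 mice in each of the 4 groups for 6 members, with WT in grey and *Gpr75*-/- in orange, and every panel spanning the same log2 range. The rounding bars are smaller than the points, spread between mice is not shown, and the tables of the diets were normalized separately. *Gpr75* reads 4.06 and 4.62 on chow and 4.31 and 4.21 on the HFD, and *Adgrd1* reads 1.51 and 0.23 on the HFD.

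As a class, the members were split evenly between higher and lower values. On chow 33 of the 66 tested were higher and 33 lower in *Gpr75*-/- mice, and the median log2 fold change was 0.00, as over all genes tested. On the HFD 34 were higher and 32 lower, again with a median of 0.00. The summed mean counts of the members in *Gpr75*-/- mice were 1.001 times those in WT mice on chow and 0.991 times on the HFD. The sign of the change was the same on both diets for 35 of 66 members (53.0%), against 53.9% of the 15893 genes tested on both.

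Precision differed between members. The 95% interval of the log2 fold change lay within 0.3 of 0 for 25 of 66 members on chow, against 44.0% of all genes tested, and for 31 of 66 on the HFD, against 51.0%. For these members the interval holds no fold under 0.812 or over 1.23, while the intervals of the others reach past a limit.

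Unadjusted p-values under 0.05 were found for 5 of 66 members on chow, where 4.68% of all genes had one, and for 8 of 66 on the HFD, where 4.49% did. Beside *Gpr75* and *Adgrd1* these were *Gpr165*, *Adgrl4*, *Gpr37* and *Gpr6* on chow, and *Adgrl4*, *Gpr37*, *Gpr6*, *Gpr151*, *Gpr158*, *Gpr83* and *Gpr155* on the HFD. None of them passed the Wald test with Benjamini-Hochberg adjustment, so the values that follow are descriptions and not calls. Over the 37 tested members outside the rule for named genes, log2 fold changes ran from -0.23 to 0.24 on chow and from -0.50 to 0.69 on the HFD, with lowest unadjusted p-values of 0.067 and 0.0651.

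**Figure D3:**
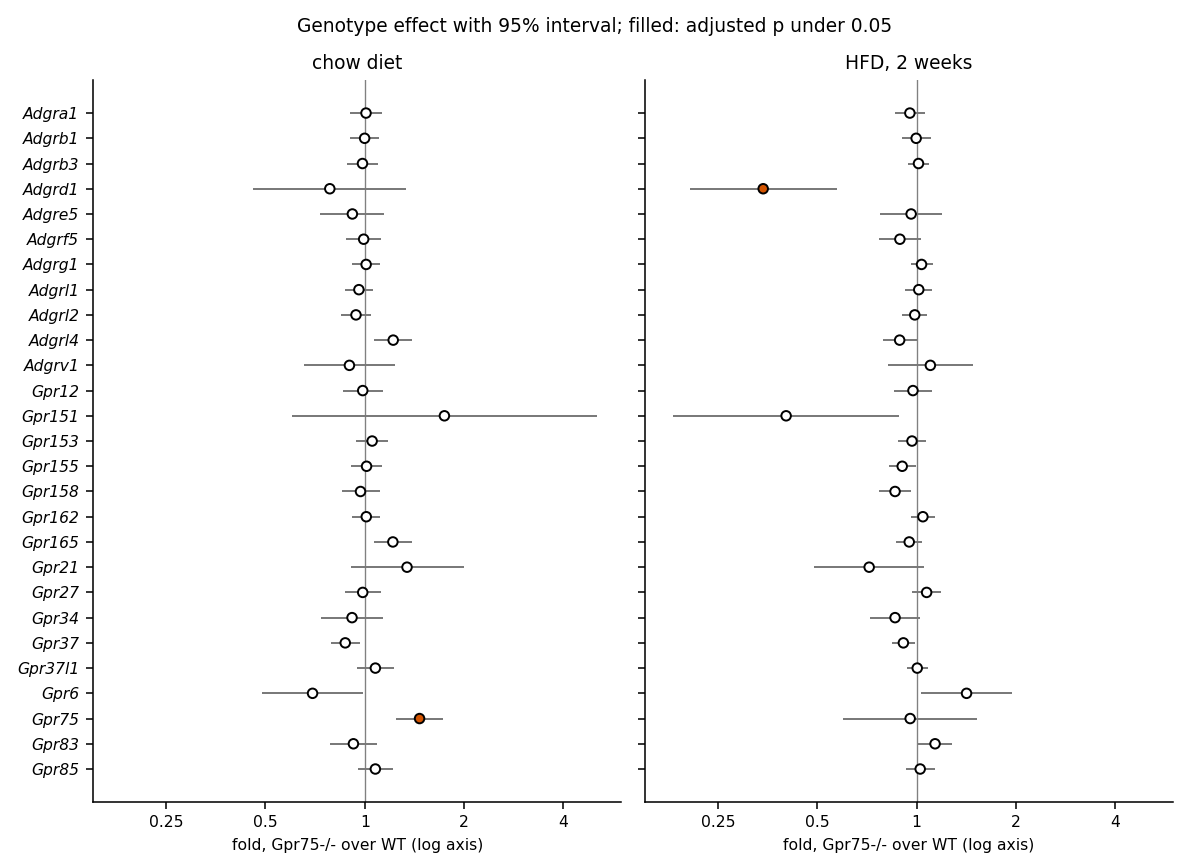
Fold of *Gpr75*-/- over WT with its 95% interval (log axis) on each diet for 27 named members, adhesion receptor genes first, with filled points where the adjusted p is under 0.05. The filled points are *Gpr75* on chow (1.47) and *Adgrd1* on the HFD (0.343), and the *Gpr75* interval on the HFD spans 0.598 to 1.53.

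Among the adhesion receptors, the BAI genes (3) and the latrophilin family genes (4) were tested on both diets, and the widest difference between the diets among them was in *Adgrl4*. *Adgrl4* encodes a receptor of endothelial cells. It had a mean log2 CPM of 4.90 in WT and 5.19 in *Gpr75*-/- mice on chow, and of 5.23 and 5.06 on the HFD. The order of the genotypes thus turned between the diets. Its fold was 1.22 (1.07 to 1.40) on chow and 0.888 (0.789 to 0.9997) on the HFD, with a log2 difference of -0.46 (unadjusted p = 0.000506, adjusted p = 0.9996 in the Wald test of the difference). Endothelial marker genes were set beside it. On chow all 7 of the list were below WT, with summed counts 0.957 times those of WT mice (5666 against 5922), and on the HFD 2 of 7, *Cdh5* and *Itm2a*, were above, with summed counts 0.976 times (6512 against 6669). The part of endothelial RNA in the *Adgrl4* values was not tested. *Adgrf5*, also of endothelial cells, was at 0.993-fold (0.879 to 1.12) on chow and 0.890-fold (0.770 to 1.03) on the HFD.

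The synaptic adhesion receptors had folds near 1. The 3 latrophilins and 3 BAI genes, *Adgrl1* to *Adgrl3* and *Adgrb1* to *Adgrb3*, lay between 0.906-fold and 0.999-fold on chow and between 0.949-fold and 1.02-fold on the HFD. The lowest value on each diet was that of *Adgrl3*, at 0.906-fold (0.814 to 1.01, unadjusted p = 0.067) on chow and 0.949-fold (0.869 to 1.04) on the HFD. *Adgrb2* followed on chow at 0.939-fold (0.831 to 1.06). *Adgrl3* and *Adgrb2* lie outside the rule for named genes and were added after their values were seen. *Adgrg1* was at 1.01-fold (0.915 to 1.11) and 1.04-fold (0.958 to 1.12), and *Adgra1* at 1.01-fold and 0.954-fold. *Adgre5*, a leukocyte receptor that binds CD55, was at 0.917-fold (0.733 to 1.15) on chow and 0.962-fold (0.774 to 1.20) on the HFD. *Adgrv1*, a gene of hair cells and photoreceptors, was at 0.899-fold (0.655 to 1.23) on chow and 1.10-fold (0.818 to 1.482) on the HFD.

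*Gpr165*, an orphan receptor gene, had a mean log2 CPM of 6.46 in WT and 6.73 in *Gpr75*-/- mice on chow, and of 6.89 and 6.84 on the HFD. Its fold was 1.22 (1.07 to 1.39) on chow and 0.950 (0.868 to 1.04) on the HFD. The log2 difference between the diets was -0.36 (unadjusted p = 0.00235, adjusted p = 0.9996 in the Wald test).

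*Gpr6*, *Gpr12* and *Gpr3* encode receptors that raise cAMP without an added ligand. *Gpr6* had a mean log2 CPM of 2.48 in WT and 2.03 in *Gpr75*-/- mice on chow, and of 2.05 and 2.53 on the HFD. The genotypes again stood in opposite order on the diets. The folds were 0.695 (0.490 to 0.985) and 1.42 (1.03 to 1.95), with a log2 difference of 1.03 (unadjusted p = 0.00308, adjusted p = 0.9996 in the Wald test). *Gpr12*, its close relative, was at 0.986-fold (0.857 to 1.13) on chow and 0.975-fold (0.852 to 1.11) on the HFD. *Gpr3*, added after its values were seen, was at 1.12-fold (0.849 to 1.479) on chow and 0.940-fold (0.725 to 1.22) on the HFD, so its values stood in the opposite order to those of *Gpr6*.

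*Gpr6* is also made by projection neurons of the striatum, and a list of 6 striatal genes, chosen after the values were seen, was set beside it. All 6 were below WT on chow, with summed counts 0.691 times those of WT mice (2552 against 3692), and none passed the adjusted threshold. *Drd1*, the dopamine D1 receptor gene, was at 0.519-fold with a gap between the log2 of the mean and the mean of the logs of 0.343 in WT mice, and *Ppp1r1b*, the gene of a dopamine-regulated phosphatase inhibitor, at 0.507-fold with a gap of 0.334. By this estimate the WT mice on chow differed among themselves in these genes. On the HFD the summed counts were 0.956 times those of WT mice (2474 against 2589), while *Gpr6* was above WT. There 4 of the 6 genes were below WT and 2 above. The lowest of the 6 on both diets was *Adora2a*, at 0.319-fold (0.0740 to 1.37) on chow and 0.623-fold (0.363 to 1.07) on the HFD. Its mean counts were low, at 69.8 and 30.2. In whole tissue, fewer cells of a type and less RNA per cell cannot be told apart, and the part of striatal RNA in the *Gpr6* values was not tested.

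*Gpr151* marks neurons of the habenula, a region above the thalamus. Its mean log2 CPM was 1.64 in WT and 2.03 in *Gpr75*-/- mice on chow, and 1.99 and 0.87 on the HFD. The folds of 1.74 (0.602 to 5.06) and 0.402 (0.182 to 0.887) had wide intervals. Standard errors were 5.73 and 3.54 times the counting error, and the gap was 0.439 in *Gpr75*-/- mice on chow and 0.197 in WT mice on the HFD. Of a list of 5 habenula genes, also chosen after the values were seen, 4 were tested. All 4 were above WT on chow (summed counts of the 5 were 1.20 times those of WT mice, 839 against 697), and 3 of 4 were below on the HFD (0.862 times, 760 against 882). *Tac2*, which hypothalamic neurons also make, gave most of these sums and was at 1.06-fold (0.935 to 1.20) on the HFD. Without it the other 4 genes summed to 1.34 times WT on chow (316 against 236) and 0.551 times on the HFD (189 against 343). The part of habenula RNA in the *Gpr151* values was not tested.

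**Figure D4:**
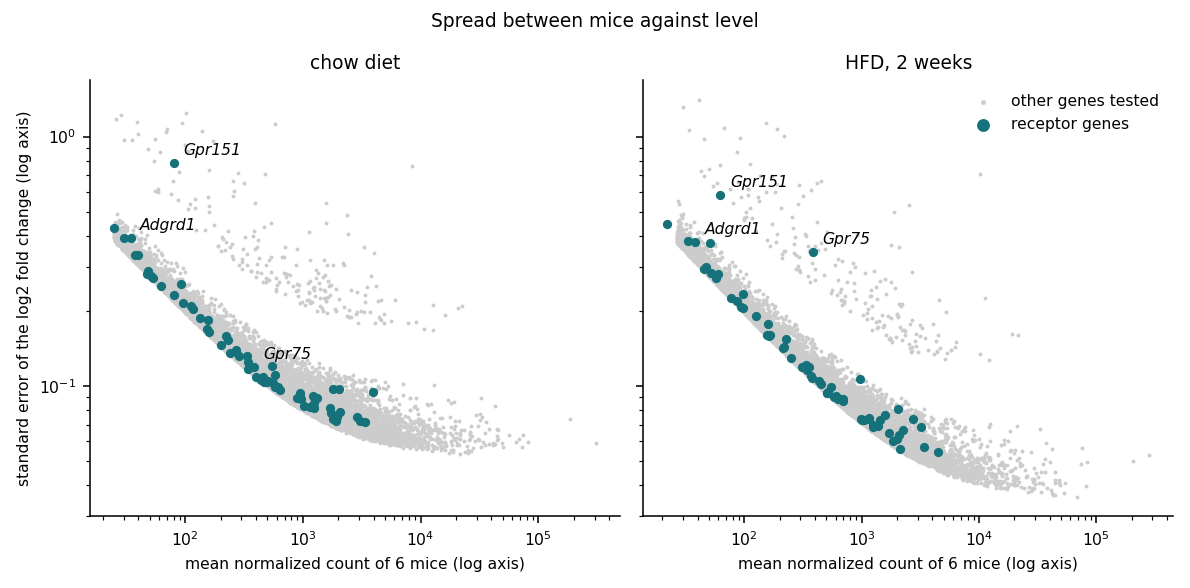
Standard error of the log2 fold change against the mean normalized count of 6 mice (both log axes) on each diet, for 65 members (teal) and all other genes tested (grey). *Gpr151* lies above the main band on both diets and *Gpr75* on the HFD, where the *Gpr75* standard error is 5.74 times its counting error, while *Adgrd1* lies within the band on both diets.

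The glial receptors *Gpr37* and *Gpr37l1*, for which the secreted protein prosaposin has been proposed as a ligand, took different values. *Gpr37*, a gene of myelinating oligodendrocytes, was below WT on both diets, at 0.873-fold (0.790 to 0.964) on chow and 0.912-fold (0.840 to 0.989) on the HFD. The unadjusted p-values were 0.00759 and 0.0267. All 13 oligodendrocyte marker genes were also below WT on both diets, with summed counts 0.904 times those of WT mice on chow (125890 against 139227) and 0.844 times on the HFD (139026 against 164660). By the same Wald test with Benjamini-Hochberg adjustment, 2 of the 13 fell on chow and 6 on the HFD. The part of oligodendrocyte RNA in the *Gpr37* values was not tested. *Gpr37l1* was at 1.08-fold (0.948 to 1.22) and 1.004-fold (0.933 to 1.08), beside summed astrocyte marker counts 1.02 times those of WT mice on each diet. *Psap*, which encodes prosaposin, was at 1.11-fold (1.01 to 1.22, unadjusted p = 0.0268) on chow and 1.01-fold (0.932 to 1.10) on the HFD.

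*Gpr158* encodes a class C receptor that anchors the RGS7 regulator of G proteins to the membrane. It was at 0.971-fold (0.850 to 1.11) on chow and 0.860-fold (0.771 to 0.960, unadjusted p = 0.00711) on the HFD. *Rgs7* was at 1.01-fold and 0.971-fold, and *Rgs7bp*, which anchors RGS7 in a similar way, was at 0.896-fold on each diet (0.808 to 0.993 and 0.807 to 0.995).

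*Gpr83*, whose proposed ligand is a peptide cut from the *Pcsk1n* product, was at 0.924-fold (0.784 to 1.09) on chow and 1.14-fold (1.01 to 1.28, unadjusted p = 0.0353) on the HFD. The difference between the diets was 0.30 on the log2 scale (unadjusted p = 0.0448). *Pcsk1n* was at 0.998-fold (0.901 to 1.11) on chow and 1.09-fold (1.02 to 1.17, unadjusted p = 0.00878) on the HFD. *Gpr155*, a cholesterol sensor of the lysosome, was at 1.01-fold (0.906 to 1.13) on chow and 0.904-fold (0.823 to 0.993, unadjusted p = 0.0359) on the HFD. *Gpr21*, with mean counts of 48.6 and 52.5, was at 1.34-fold (0.906 to 1.99) and 0.718-fold (0.488 to 1.06), a log2 difference of -0.90 (unadjusted p = 0.0261), and its interval overlaps *Rabgap1* and *Strbp*.

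The remaining named members had folds near 1. *Gpr162*, *Gpr153*, *Gpr27* and *Gpr85*, all highly expressed, lay between 0.986-fold and 1.08-fold on chow and between 0.968-fold and 1.07-fold on the HFD. *Gpr34*, a lysophosphatidylserine receptor of microglia, was at 0.915-fold (0.737 to 1.14) on chow and 0.860-fold (0.722 to 1.03) on the HFD, beside summed microglial marker counts 0.971 and 0.972 times those of WT mice. The interval of *Gpr34* overlaps that of the protein-coding gene *Cask*, and 17 members in all overlap a listed protein-coding gene. Of genes listed on 1 diet, *Gpr183*, with a mean count of 27.1, was at 0.919-fold (0.554 to 1.52) on chow, and *Gpr160*, with a mean count of 27.7, at 0.920-fold (0.539 to 1.57) on the HFD.

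For the difference between the diets, 7 of 66 members had an unadjusted p under 0.05, where 2.89% of all genes tested did, and none an adjusted p under 0.05 in the Wald test of the difference. No gene of all 15893 tested passed (0%), and the lowest adjusted p over all of them was 0.545. The 7 were *Adgrl4*, *Gpr165*, *Gpr6*, *Gpr21*, *Adgrd1*, *Gpr151* and *Gpr83*. For 5 of them the effect was more negative on the HFD, and for *Gpr6* and *Gpr83* it was more positive. Over all members the split was even, with 33 more positive and 33 more negative. *Adgrl4* and *Gpr6* had unadjusted p-values under 0.05 on both diets with opposite signs, and *Gpr37* on both with the same sign.

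**Figure D5:**
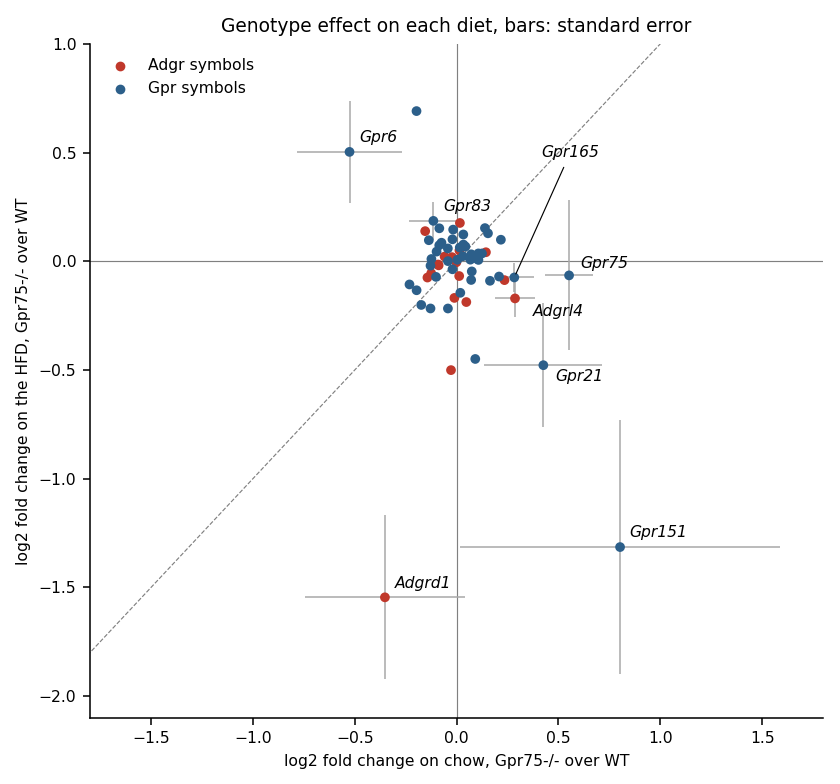
Log2 fold change of *Gpr75*-/- over WT on the HFD against that on chow for 64 of the members tested on both diets, with adhesion receptor genes in red, standard errors for the labelled genes, and a dashed line where the effects are equal. Most members cluster near 0 on both axes, while *Gpr75* (0.55, -0.06), *Adgrd1* (-0.35, -1.55), *Gpr151* and *Gpr6* lie apart.

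Partners of the receptors were taken from lists of known ligands and signaling proteins. Of 21 genes for binding partners of adhesion receptors, 20 were tested. On chow 16 were below WT, against 8279 of all 16191 genes, with a median log2 fold change of -0.09, and on the HFD 11 were below, with a median of -0.02. None passed the adjusted threshold, and 1 on chow and 2 on the HFD had an unadjusted p under 0.05 in the Wald test. On chow this was *Nrxn3*, a neurexin gene, at 0.884-fold (0.807 to 0.968). On the HFD *Tenm3*, a teneurin gene whose product binds latrophilins, was at 0.827-fold (0.729 to 0.938).

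Of 10 genes for partners of the orphan receptors, 9 were tested, and none passed the adjusted threshold in the Wald test, with 2 on chow and 3 on the HFD at an unadjusted p under 0.05. The third on the HFD beside *Pcsk1n* and *Rgs7bp* was *Gprasp2*, a sorting protein for receptors, at 1.08-fold (1.004 to 1.16). *Tulp3*, whose product carries GPCRs into the cilium, was at 0.930-fold (0.781 to 1.11) on chow and 1.07-fold (0.904 to 1.26) on the HFD. *Adcy3*, the adenylyl cyclase of neuronal cilia, was at 0.932-fold (0.823 to 1.06) and 1.09-fold (0.990 to 1.21).

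All 17 listed genes of G protein α subunits, arrestins and receptor kinases were tested. None passed the adjusted threshold, and 1 on each diet had an unadjusted p under 0.05 in the Wald test. These were *Gnai3*, an inhibitory α subunit gene, at 1.17-fold (1.05 to 1.31) on chow, and *Gnal*, the stimulatory α subunit of olfactory and striatal neurons, at 0.896-fold (0.832 to 0.964) on the HFD. *Gnaq*, which encodes the α subunit of Gq, was at 0.988-fold (0.909 to 1.07) on chow and 1.03-fold (0.965 to 1.10) on the HFD.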

How the data were processed

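Libraries were prepared from hypothalamus mRNA with a SMART-Seq kit, and the authors compared raw counts between genotypes with DESeq2 on each diet separately. STAR, featureCounts and the build GRCm39 are named in the submitters' processing notes. The signal the authors deposited per gene is the mean normalized count of 6 mice. Counts per group were computed from it and the fitted fold, with groups of equal size. The deposited log2 fold changes and standard errors were used because no other column holds the spread between mice. The deposited group means are on a log2 scale taken of a log value, and 2 to the power of the value, minus 1, was read as mean log2 CPM. This reading was inferred from the values: it differs from the log2 of the mean CPM by a median of -0.0119 on chow and -0.0108 on the HFD.

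Of the authors' deposited p-values, only the blanks were used, to keep their filter (lowest means 25.1 for the 16191 genes of chow and 26.9 for the 16089 of the HFD). Python 3.11.15 with scipy 1.17.1, pandas 2.3.3 and numpy 2.4.6 recomputed the Wald test (2-sided, normal), its Benjamini-Hochberg adjustment and 95% intervals, and matplotlib 3.10.9 drew the figures. The test of the difference divides the difference of the log2 fold changes by the root of their summed squared standard errors, each diet having its own WT mice. Tests on counts that were planned could not be fitted to these tables. The steps were run on simulated effects drawn with the deposited standard errors, which checks the computation alone. Such a run cannot check how well those errors are estimated from 3 mice per group or at low counts.

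The members and gene lists were chosen with earlier results of these data known. Named are *Gpr75*, *Adgrd1*, members with a p under 0.05, the 10 highest by count and by count per kb, the highest of each role list, the 5 largest ratios of standard error to counting error per diet, and partners with a p under 0.05 or preset. The alternatives were Bonferroni adjustment, a minimum mean of 100, no minimum, only protein-coding genes, statistics scaled by their median absolute deviation, and the difference of the group means. Results of a few single genes are left out. Depth per mouse was not used here, so intervals rest on the standard errors.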

Additional observations from a re-analysis of the deposited data

How the results depend on the processing

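The *Gpr75* call on chow and the *Adgrd1* call on the HFD held without a filter on the mean, with protein-coding genes alone and with the statistics divided by their spread. Under Bonferroni adjustment, 0 members were called on either diet: the log2 fold change of *Gpr75* on chow, 0.55, had an adjusted p of 0.0644, and that of *Adgrd1* on the HFD, -1.55, an adjusted p of 0.673, both from the Wald test. Over the alternatives the adjusted p ran from 0.00125 to 0.0644 for *Gpr75* on chow and from 0.0017 to 0.673 for *Adgrd1* on the HFD. With a mean of at least 100, 0 of 52 members were called on the HFD, because *Adgrd1*, the one member called, was no longer tested. No member was called for the difference between the diets under any alternative run. Over all genes, the count with the statistics divided by their spread was 20 against 10 on chow, 93 against 32 on the HFD and 2 against 0 for the difference. With Bonferroni adjustment it was 7 on chow and 11 on the HFD. No paired analysis was possible because the values are 1 per gene and diet, with none for single mice, and leaving out each mouse in turn was not run for the same reason. From the values used here, it cannot be told whether the wide spread of *Gpr75* on the HFD comes from 1 mouse or from all 3. The call on *Adgrd1* rests on a mean under 100.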
